A study of Mus musculus with 6 samples.

Results

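The 8 genes described here encode proteins that most endothelial cells carry on their surface or secrete: Pecam1, Clec14a, Cd93, Emcn, Egfl7, Adgrl4, Robo4 and Mcam. They were taken as every probe set (a group of short probes that reads 1 transcript region) that the platform annotation assigns to one of these symbols alone, which gave 17 of the 45037 probe sets tested. RNA was taken at postnatal day 16 from the endothelium of mouse cerebellum, and mice of both groups were of mixed gender and mixed C57Bl6/129 background. One group was Fz4-/-, lacking Frizzled4 (gene Fzd4, an endothelial receptor for Norrin and Wnt signals) and the other was wild type, with 3 preparations and 3 arrays each. Cells were pulled out with magnetic beads coated with an antibody to PECAM, the product of Pecam1, so the gene of the capture antigen is itself among the 8. The series title sets the question as the long-term effect of losing Frizzled4 signalling. The labels name neither the part of the gene removed nor whether a preparation held 1 animal or several, so the spread between arrays may be partly technical.

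Endothelial cells line all blood vessels, and the products of these genes sit at their junctions, on the face toward the blood or in the matrix beneath. In the brain the same cells also form the blood-brain barrier, which depends on Wnt and Norrin signals received through Frizzled receptors. Genes shared by most endothelial cells are used to recognise and purify the cell type, and for that reason their levels bear on how preparations are compared.

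All values are log2 RMA expression, a scale on which 1 unit is a doubling, and every difference is Fz4-/- minus wild type. The label of the mutant group was checked on Fzd4, whose brightest probe set read 3.04 to 4.03 in the Fz4-/- arrays, against 10.20 to 10.88 in the wild-type arrays. Its log2 difference was -6.94 (SE 0.34, limma adjusted p = 0.00965), and since the Fz4-/- values lie near the arrays' lower quartiles (3.46 to 3.64) the loss may be understated. The 8 markers used to check for endothelium (Cdh5, Kdr, Tie1, Tek, Flt1, Esam, Cldn5 and Erg) read 8.92 to 12.84 in the Fz4-/- arrays and 9.17 to 12.89 in the wild-type arrays. All of these values lie above the upper quartiles of the arrays (7.97 to 8.08), so defining endothelial transcripts were present on all 6. The arrays numbered 3 in both genotypes stood apart from those numbered 1 and 2. Fz4-/- replicate 1 was low in transcripts of other cell types, and wild-type replicate 3 was high in those of the choroid plexus, the epithelium that makes cerebrospinal fluid.

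The brightest probe set of each of the 8 genes read higher on average in the Fz4-/- arrays, and none of the differences passed the threshold of an adjusted p of 0.05. The differences lay between 0.10 for Adgrl4 and 1.00 for Clec14a, with a median of 0.38, beside a median of 0.008 over all 18193 genes. Of the 17 probe sets, 16 read higher and 1 read lower, and 0 passed in limma (adjusted p from 0.802 to 1.00). Over the whole series 0.0111% of probe sets passed, and 0.022% of genes read from their brightest probe set. A mean higher in Fz4-/- was found in 48.6% of all probe sets and in 51.3% of all genes. All 8 genes were among the 10926 whose mean lay above the median of all probe sets. Of those 10926 genes 6649 read higher, with a median difference of 0.05. At an unadjusted p under 0.05 there were 2, both of Clec14a, where 2.08% of all probe sets were higher at that level. In bulk RNA, more endothelial cells in a preparation and more RNA per cell cannot be told apart. The number of arrays limits the precision. On simulated data of this size limma recovered 0% of changes of log2 0.5, 3.20% of log2 1 and 71.6% of log2 2. The simulated noise was independent between probe sets and arrays, without the shifts by array number seen here. Changed probe sets were drawn from the whole table, so the rates are not specific to the 8 genes.

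**Figure D1:**
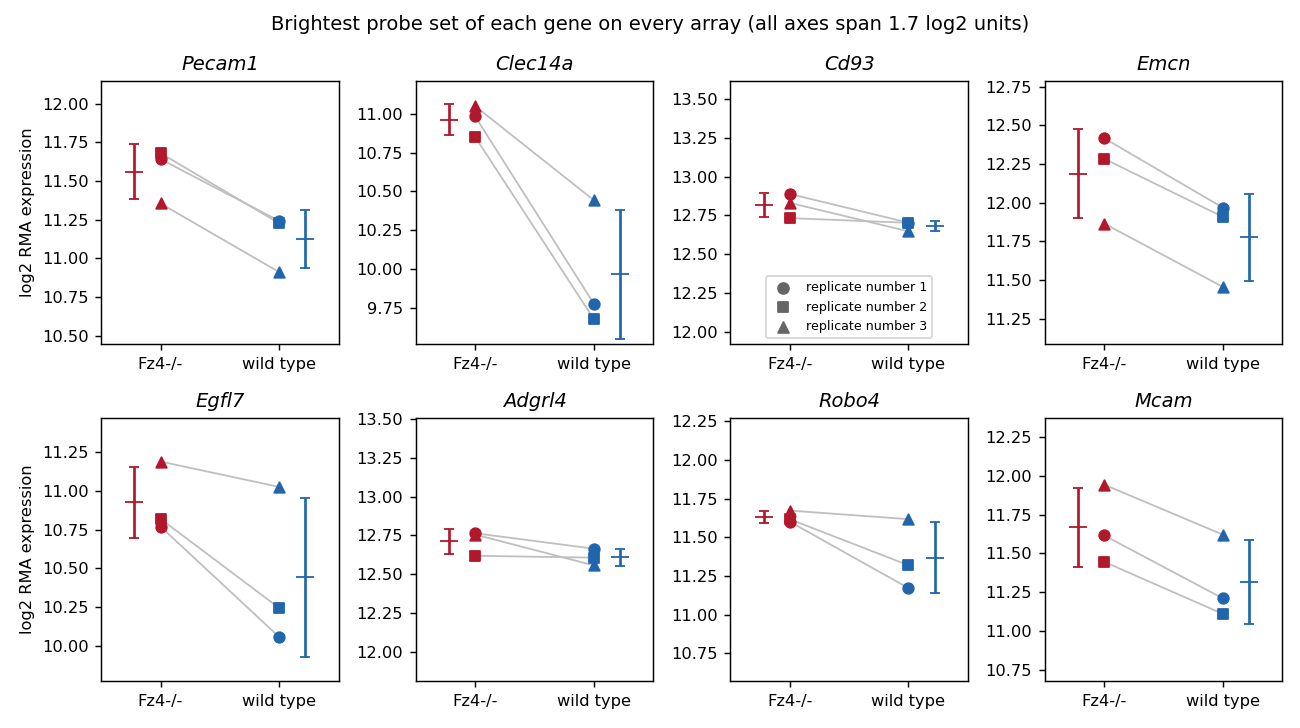
Log2 RMA expression (vertical axis, each spanning 1.7 log2 units) of the brightest probe set of 8 genes on each Fz4-/- array (red, left) and wild-type array (blue, right). Symbols give the replicate number, grey lines join arrays of the same number, and bars beside the points are mean ± SD of 3 arrays. All 24 lines run higher on the Fz4-/- side, but they come from the same 6 arrays and are not independent.

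Promoter sequences are shown for 4 of the genes because their differences were among the larger (Clec14a, Egfl7, Emcn) or because Robo4 was, beside Egfl7, a gene whose window held the letters of a Wnt-linked motif. Each runs from 250 bases before to 50 bases after a transcription start in RefSeq annotation, build GRCm38.p6, and is written 5′ to 3′ on the gene's own strand. Capitals mark AGGAAG or its reverse complement CTTCCT, the letters of a core bound by ETS factors, a family known for endothelial gene control. Egfl7 has several starts, and the outermost is shown.
Clec14a, chr12:58269209-58269508, minus strand: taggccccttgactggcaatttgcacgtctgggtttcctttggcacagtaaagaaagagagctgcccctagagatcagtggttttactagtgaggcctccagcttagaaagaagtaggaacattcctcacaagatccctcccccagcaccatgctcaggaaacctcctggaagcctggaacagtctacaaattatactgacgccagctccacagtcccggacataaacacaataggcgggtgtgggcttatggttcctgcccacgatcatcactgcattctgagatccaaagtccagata
Egfl7, chr2:26580833-26581132, plus strand: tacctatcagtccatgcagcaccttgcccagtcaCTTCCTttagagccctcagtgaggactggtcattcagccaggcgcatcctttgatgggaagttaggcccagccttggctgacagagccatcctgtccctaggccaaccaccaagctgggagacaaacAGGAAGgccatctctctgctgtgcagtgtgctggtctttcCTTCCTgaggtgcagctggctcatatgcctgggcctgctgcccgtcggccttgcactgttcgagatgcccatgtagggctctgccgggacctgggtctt
Emcn, chr3:137340828-137341127, plus strand: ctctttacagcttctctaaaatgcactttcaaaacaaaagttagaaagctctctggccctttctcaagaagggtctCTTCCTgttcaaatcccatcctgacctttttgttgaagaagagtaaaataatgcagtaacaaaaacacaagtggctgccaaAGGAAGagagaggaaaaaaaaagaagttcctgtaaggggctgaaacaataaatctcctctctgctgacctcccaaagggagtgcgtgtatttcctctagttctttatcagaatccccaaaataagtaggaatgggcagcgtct
Robo4, chr9:37401722-37402021, plus strand: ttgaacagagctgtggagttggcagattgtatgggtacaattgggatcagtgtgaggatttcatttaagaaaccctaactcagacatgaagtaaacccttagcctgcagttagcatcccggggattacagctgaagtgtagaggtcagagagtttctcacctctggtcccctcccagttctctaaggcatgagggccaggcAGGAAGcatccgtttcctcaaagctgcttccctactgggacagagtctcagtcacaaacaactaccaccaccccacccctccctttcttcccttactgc

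RefSeq promoter windows were found for 6 of the 8 genes, 8 windows in all, with none for Pecam1 and Cd93. The ETS letters occurred on either strand in 5 of these windows and in 35.4% of all 32851 promoter windows. CTTTGA, the core recognised by TCF/LEF factors (the transcription factors of the Wnt pathway), occurred in the outermost Egfl7 window and in that of Robo4, and in 16% of all windows. AACAAT, a core of SOX factors, occurred in the Emcn window alone among the 8 and in 10.7% of all windows. No match overlapped a match to another of the 3 motifs. The Clec14a window held none of the 3, which says only that these letters are not in this stretch. A match is a description of letters and not evidence of binding.

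Pecam1, the capture antigen, is an immunoglobulin-family adhesion protein at endothelial junctions that is also carried by platelets and leukocytes. The gene lies on chromosome 11 at 106654213 to 106715281 (GRCm38.p6) and had 1 probe set, 1421287_a_at. It read 11.64, 11.68 and 11.35 in the Fz4-/- arrays, against 11.24, 11.23 and 10.91 in the wild-type arrays. Every Fz4-/- array lay above every wild-type array, and in both genotypes the array numbered 3 was the lowest. The means were 11.56 ± 0.18 in Fz4-/- and 11.13 ± 0.19 in wild type (SD, n = 3 each), a log2 difference of 0.43 (SE 0.19, 95% interval -0.02 to 0.89, limma adjusted p = 1.00), or 1.35-fold. Between arrays of the same number the difference was 0.40, 0.45 and 0.44. The 3 within-number differences thus varied far less (SD 0.03) than the arrays within either genotype did.

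Mcam (CD146), another immunoglobulin-family adhesion protein, is made by pericytes and smooth muscle as well as by endothelium. Its 1 probe set, 1416357_a_at (gene on chromosome 9, 44134658 to 44142727), read 11.62, 11.45 and 11.94 in the Fz4-/- arrays, against 11.21, 11.11 and 11.62 in the wild-type arrays. The groups overlapped, since wild-type replicate 3 lay above Fz4-/- replicates 1 and 2. The log2 difference was 0.36 (SE 0.23, 95% interval -0.18 to 0.89, limma adjusted p = 1.00), and by number it was 0.41, 0.34 and 0.32. Without Fz4-/- replicate 3 it was 0.22. The mean level of the pericyte and smooth muscle list was 8.91, 9.96 and 10.19 on the Fz4-/- arrays, against 9.88, 9.87 and 10.24 on the wild-type arrays, and its part in the Mcam values was not tested.

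Clec14a showed the largest difference of the 8 genes. It is a C-type lectin of a small family of endothelial receptors that bind the matrix protein multimerin 2, and the gene lies on chromosome 12 at 58264720 to 58269258. Its brighter probe set, 1419467_at, read 10.99, 10.85 and 11.05 in the Fz4-/- arrays, against 9.77, 9.67 and 10.44 in the wild-type arrays. All Fz4-/- arrays lay above all wild-type arrays, and wild-type replicate 3 was the wild-type array nearest to them. The means were 10.96 ± 0.10 in Fz4-/- and 9.96 ± 0.42 in wild type (SD, n = 3 each), a log2 difference of 1.00 (SE 0.24, 95% interval 0.42 to 1.58), or 2.00-fold. It did not pass over the whole table (limma adjusted p = 0.811), and by number the difference was 1.21, 1.18 and 0.61.

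The other Clec14a probe set gave a like picture. It read 10.62, 10.43 and 10.76 in the Fz4-/- arrays, against 9.64, 9.52 and 10.04 in the wild-type arrays. The groups again did not overlap, and the log2 difference was 0.87 (SE 0.21, limma adjusted p = 0.802).

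Cd93 belongs to the same lectin family, binds the same matrix protein and is also made by some blood cells. Its brightest probe set, 1419589_at (gene on chromosome 2, 148436651 to 148443535), read 12.89, 12.73 and 12.83 in the Fz4-/- arrays, against 12.70, 12.70 and 12.65 in the wild-type arrays. The groups did not overlap, but the gap between the nearest arrays was small beside the limma error. The log2 difference was 0.13 (SE 0.16, 95% interval -0.24 to 0.51, limma adjusted p = 1.00). The other 4 Cd93 probe sets differed by 0.11, 0.22, 0.39 and -0.04 in order of falling mean level, and all 4 overlapped. The dimmest of them, with a mean of 2.98, lay below the arrays' lower quartiles (3.46 to 3.64) and is not shown to lie above background.

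Robo4 is the endothelial member of the Roundabout receptor family and is known to bind Unc5b on neighbouring endothelial cells. Its 1 probe set, 1426206_at (gene on chromosome 9, 37401902 to 37414023), read 11.60, 11.62 and 11.67 in the Fz4-/- arrays, against 11.17, 11.32 and 11.62 in the wild-type arrays. The Fz4-/- arrays lay close together (SD 0.04) while the wild-type arrays spread more widely (SD 0.23), and the groups overlapped at wild-type replicate 3. The log2 difference was 0.26 (SE 0.18, 95% interval -0.18 to 0.70, limma adjusted p = 1.00). By number it was 0.43, 0.30 and 0.06, and without wild-type replicate 1 it was 0.16.

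Adgrl4, formerly Eltd1, is an adhesion G protein-coupled receptor of endothelium. Its brighter probe set, 1418058_at (gene on chromosome 3, 151437882 to 151545081), read 12.76, 12.62 and 12.76 in the Fz4-/- arrays, against 12.66, 12.61 and 12.56 in the wild-type arrays. The groups overlapped, and the log2 difference of 0.10 (SE 0.16, 95% interval -0.28 to 0.48, limma adjusted p = 1.00) was the smallest among the 8 genes. It was 0.06 without both arrays numbered 3, and the mean of the 2 Adgrl4 probe sets gave 0.18. The dimmer probe set read 11.84, 11.55 and 11.83 in the Fz4-/- arrays, against 11.53, 11.36 and 11.55 in the wild-type arrays, without overlap (difference 0.26, SE 0.18, limma adjusted p = 1.00).

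Emcn encodes endomucin, a heavily glycosylated mucin on the blood-facing side of capillaries and veins. Its 1 probe set, 1425582_a_at (gene on chromosome 3, 137341062 to 137431069), read 12.42, 12.28 and 11.87 in the Fz4-/- arrays, against 11.97, 11.91 and 11.46 in the wild-type arrays. The groups overlapped because the arrays numbered 3 were lowest in both genotypes, as they were for Pecam1. The log2 difference was 0.41 (SE 0.24, 95% interval -0.15 to 0.97, limma adjusted p = 1.00), and by number it was 0.45, 0.38 and 0.41. Without wild-type replicate 3, which removes 1 array numbered 3 from 1 genotype only, it was 0.25.

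Egfl7 encodes a secreted protein with EGF-like domains that stays in the matrix around vessels, and the gene also hosts the endothelial microRNA miR-126, which was not measured here. Its brightest probe set, 1451428_x_at (gene on chromosome 2, 26581083 to 26592682), is of a type that can read several transcripts. It read 10.77, 10.82 and 11.19 in the Fz4-/- arrays, against 10.06, 10.24 and 11.03 in the wild-type arrays. The groups overlapped at wild-type replicate 3, and here the arrays numbered 3 were the highest in both genotypes. The log2 difference was 0.49 (SE 0.29, 95% interval -0.21 to 1.18, limma adjusted p = 1.00), and by number it was 0.71, 0.58 and 0.16. Leaving out wild-type replicate 3 gave 0.78, and leaving out wild-type replicate 1 gave 0.29. The other 3 Egfl7 probe sets differed by 0.52, 0.34 and 0.18, and all overlapped.

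**Figure D2:**
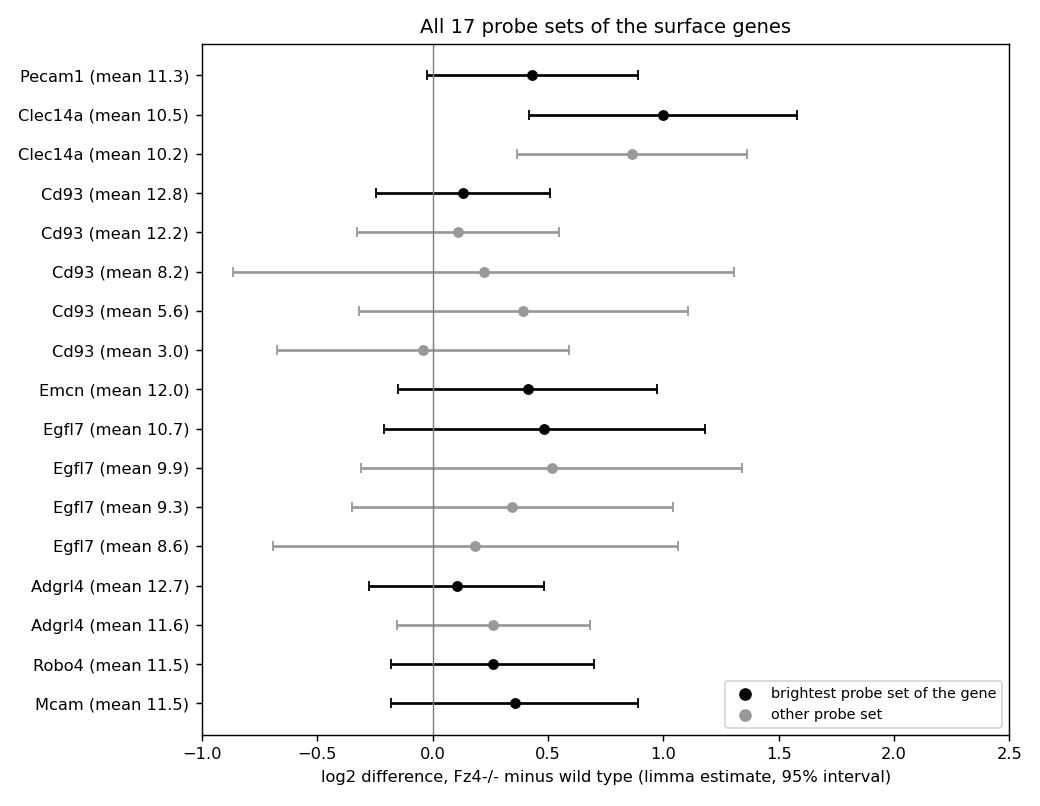
Log2 difference, Fz4-/- minus wild type, with its 95% limma interval (horizontal axis) for all 17 probe sets, named by gene with the mean log2 level over 6 arrays; black marks the brightest probe set of a gene and grey the others. The Clec14a probe sets, at 1.00 and 0.87, are those whose intervals lie above 0.

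Differences between arrays of the same replicate number had the same sign in all 8 genes. Each read higher in Fz4-/- within each of the 3 numbers, on the brightest probe set. Over all genes 17.6% did so, and 23.7% of the genes whose mean lay above the median of all probe sets. Of the 17 probe sets 14 did so, beside 15.5% of all probe sets. These genes and probe sets were read on the same 6 arrays, so they are not independent observations. By number the median difference of the 8 genes was 0.42, 0.36 and 0.26, beside 0.05, 0.004 and -0.02 over all genes. For 3 of the 8 genes, Pecam1, Clec14a and Cd93, all Fz4-/- arrays lay above all wild-type arrays, and 4.59% of all genes did so. Of the 10926 genes whose mean lay above the median of all probe sets, 640 did so. The same held for 5 of the 17 probe sets and for 4.08% of all probe sets. With the replicate number as a block, 0 of the 17 probe sets passed in limma (adjusted p from 0.417 to 0.972), nor did any of the 45037. At an unadjusted p under 0.05 in that fit there were 6 of the 17, where 4.19% of all probe sets were higher at that level.

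The genes differed in how they followed the arrays numbered 3. In Fz4-/-, the array numbered 3 lay apart from the mean of the other two by -0.31 for Pecam1 and -0.48 for Emcn, and in wild type by -0.32 and -0.48. Mcam went the other way, at 0.41 in Fz4-/- and 0.46 in wild type. For these 3 genes the shift with the array number was about as large in both genotypes, and it was of the same order as the genotype difference. Egfl7 stood 0.40 higher on the array numbered 3 in Fz4-/- and 0.88 higher in wild type. Clec14a stood 0.13 higher in Fz4-/- and 0.72 higher in wild type, and Robo4 0.06 and 0.37 higher. In those 3 genes the wild-type array numbered 3 lay nearer to the Fz4-/- arrays than the other wild-type arrays did. The labels do not say what the numbers stand for.

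Other genes found in most endothelial cells were set beside the 8. Of a list of 28, all measured, 23 read higher and 5 lower in Fz4-/-, where 51.3% of all genes read higher. The median difference was 0.10, and 0 passed the threshold, beside 0.022% of all genes. At an unadjusted limma p under 0.05 there were 2, both higher, beside 4.6% of all genes in either direction. Within all 3 numbers 9 of the 28 read higher, beside 17.6% of all genes. For 4 of the 28 all Fz4-/- arrays lay above all wild-type arrays, beside 4.59% of all genes. Myct1, an endothelial membrane protein, read 11.05, 11.18 and 10.90 in the Fz4-/- arrays, against 10.04, 10.04 and 10.03 in the wild-type arrays. Its groups were far apart on this brightest probe set, with a log2 difference of 1.01 (SE 0.17, limma adjusted p = 0.463), close to that of Clec14a. With the probe sets of each gene averaged, Myct1 read 0.81 (SE 0.27, limma adjusted p = 0.899) and Clec14a 0.93 (SE 0.21, limma adjusted p = 0.487). Tie1, an endothelial receptor tyrosine kinase, read 0.49 higher (SE 0.19), and the transcription factor Sox18 read 0.46 higher (SE 0.30), both with limma adjusted p = 1.00. At the other end Flt1, a VEGF receptor, read -0.13 and Nos3, the endothelial nitric oxide synthase, read -0.14. The junction cadherin Cdh5 read 0.44 and the VEGF receptor Kdr 0.004. The remaining markers used to check for endothelium read 0.08 (Erg), 0.02 (Esam), -0.01 (Cldn5) and -0.07 (Tek).

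**Figure D3:**
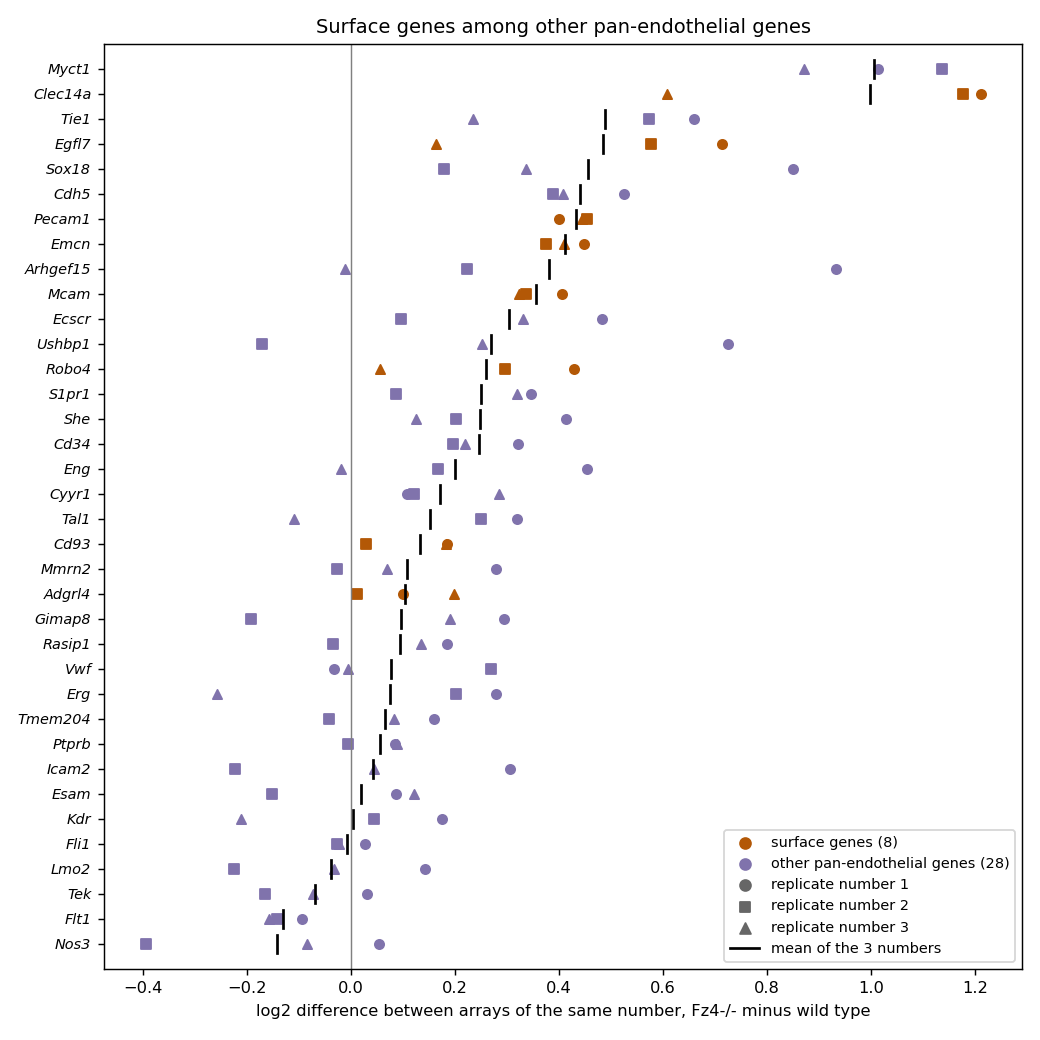
Log2 difference between arrays of the same replicate number, Fz4-/- minus wild type (horizontal axis), for the 8 surface genes (orange) and 28 other pan-endothelial genes (purple), ordered by their mean (black bar); symbols give the number. The surface genes have all their points right of 0, as do 9 of the others, with Myct1 and Clec14a at the top.

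The mean level of these 28 genes was 11.29, 11.04 and 11.19 on the Fz4-/- arrays, against 10.96, 10.96 and 11.08 on the wild-type arrays, 0.17 higher on average. When each array was centred on that mean, the median over all genes became -0.17, and the 8 genes read relative to the other endothelial genes. Clec14a then differed by 0.82 (SE 0.23, limma adjusted p = 0.738) and Egfl7 by 0.31. Pecam1 differed by 0.26, Emcn by 0.24, Mcam by 0.18 and Robo4 by 0.09, with the sign kept. Cd93 (-0.041) and Adgrl4 (-0.070) changed sign. The mean difference of the 28 genes lay above their median of 0.10, and after the centring their own median read -0.072. The 2 sign changes thus depend on centring by the mean. The median of the 8 was 0.21 on this scale, and 0 of the 17 probe sets passed.

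Genes whose products are known to bind the 8 proteins, or to act directly with them, formed a list with 11 measured members. Past the threshold were 0 of them, beside 0.022% of all genes. Of the 11, 5 read higher and 6 lower, with a median of -0.007, where 51.3% of all genes read higher. At an unadjusted limma p under 0.05 there were 0, beside 4.6% of all genes in either direction. Slit2, a guidance ligand of Roundabout receptors, read 7.83, 8.20 and 5.50 in the Fz4-/- arrays, against 8.47, 8.98 and 8.59 in the wild-type arrays. The groups did not overlap, Fz4-/- replicate 3 was by far the lowest array, and the log2 difference was -1.50 (SE 0.68, limma adjusted p = 1.00). Lox, a matrix cross-linking enzyme that Egfl7 is known to restrain, read -0.52 (SE 0.39), and Lama4, a laminin chain bound by Mcam, read 0.38 (SE 0.35). Mmrn2, the shared ligand of Clec14a and Cd93, read 0.11 (SE 0.19) and Unc5b -0.007 (SE 0.42), and all 4 had limma adjusted p = 1.00.

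Among 15 relatives of the 8 genes, 0 passed the threshold, beside 0.022% of all genes. Of these relatives 8 read higher and 7 lower, with a median of 0.007, where 51.3% of all genes read higher. Of the 15, 1 had an unadjusted limma p under 0.05, namely Robo1, beside 4.6% of all genes in either direction. Robo1, a relative of Robo4 best known from axon guidance, read 9.96, 9.02 and 8.93 in the Fz4-/- arrays, against 8.22, 8.11 and 8.25 in the wild-type arrays. The groups did not overlap, and the log2 difference was 1.11 (SE 0.30, limma adjusted p = 0.885). Robo3 read -0.27 (SE 0.17) and Cd34, a sialomucin as Emcn is, 0.25 (SE 0.19), each with limma adjusted p = 1.00. Thbd, a lectin-family relative of Clec14a that controls clotting, read 0.12, and the stromal relative Cd248 read -0.51 with Fz4-/- replicate 1 as its lowest array (6.72).

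The genes whose 6 values most resembled those of 2 members were found by the root-mean-square distance of log2 values, each gene centred on its own mean, among 10925 other genes with means above the median of all probe sets. Nearest to Pecam1 lay Ranbp6 (distance 0.04), Zcchc2, Eva1b, 2410004B18Rik and Ptpn14 (0.06), with differences between 0.39 and 0.49. Nearest to Clec14a lay Slc43a3 (distance 0.05), Iqsec2, Nox4, Plpp1 and Cdh26 (0.13), with differences between 0.86 and 1.10. Slc43a3, a solute carrier, read 9.42, 9.30 and 9.45 in the Fz4-/- arrays, against 8.21, 7.99 and 8.93 in the wild-type arrays. None of the 10 passed the threshold, beside 0.022% of all genes that did. They were picked for likeness on the same 6 arrays, so differences close to those of Pecam1 and Clec14a follow from the choice. The likeness describes these arrays alone.

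None of the lists of other cell types had a member past the threshold, beside 0.022% of all genes, and their levels differed between arrays. The mean level of 12 microglia and macrophage genes was 5.38, 8.01 and 7.78 on the Fz4-/- arrays, against 7.91, 7.96 and 7.86 on the wild-type arrays. Fibroblast genes (10) read 7.06, 10.16 and 9.05 on the Fz4-/- arrays, against 9.62, 9.61 and 9.96 on the wild-type arrays. In both lists Fz4-/- replicate 1 was by far the lowest array, and it was also the lowest for astrocyte genes (7.12, with 8.87 and 9.09 on the other Fz4-/- arrays, against 8.43 to 9.19 in wild type). Choroid plexus genes (8) read 4.79, 5.37 and 5.25 on the Fz4-/- arrays, against 5.90, 5.83 and 8.27 on the wild-type arrays. The leukocyte and platelet list (9 genes), whose cells can also carry Pecam1 protein, read 4.95, 5.99 and 6.13 on the Fz4-/- arrays, against 5.96, 6.34 and 6.07 on the wild-type arrays. At an unadjusted limma p under 0.05, lower in Fz4-/-, there were 3 of the choroid plexus genes, 2 of the astrocyte genes, 1 each of the microglia and fibroblast genes and 0 of the leukocyte and platelet genes, and 2.26% of all genes were lower at that level.

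**Figure D4:**
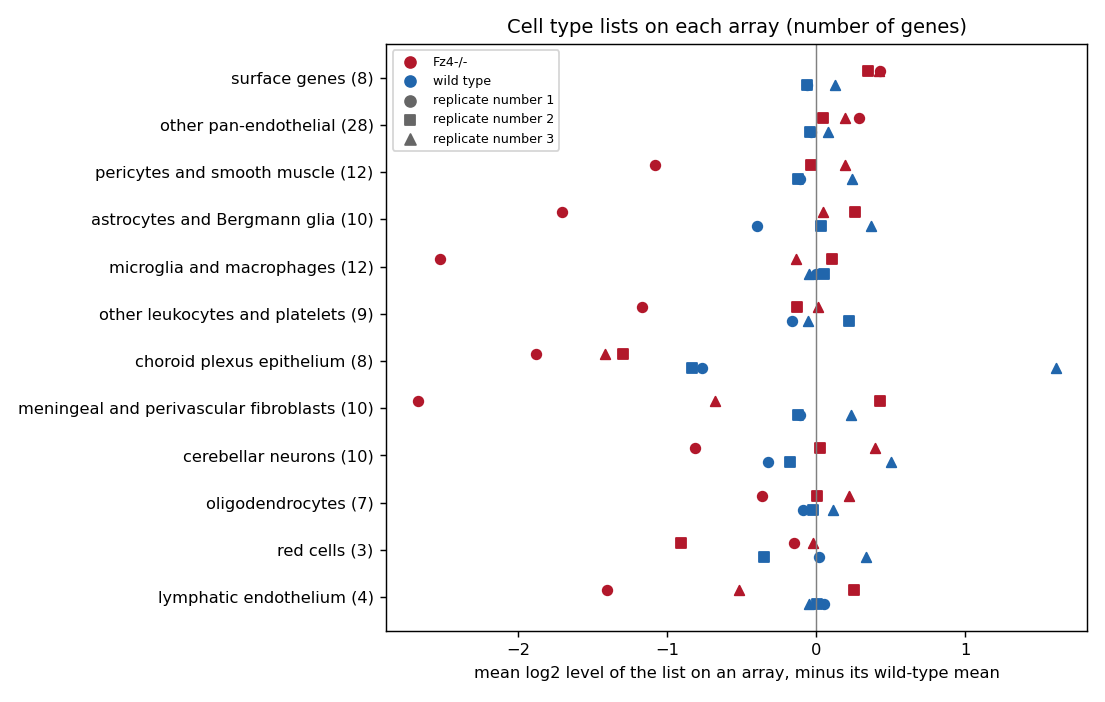
Mean log2 level of each gene list on an array minus its wild-type mean (horizontal axis), for Fz4-/- (red) and wild-type arrays (blue), with the number of measured genes in brackets and symbols for the replicate number. Fz4-/- replicate 1 is low in most non-endothelial lists, while the surface genes lie above every wild-type array on all 3 Fz4-/- arrays.

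Between the groups the choroid plexus list did not overlap, and the other cell type lists did. Each of these lists had a lower mean level in Fz4-/-, with differences from -0.05 (oligodendrocytes) to -1.53 (choroid plexus). In Fz4-/-, 0 of 12 microglia, 0 of 10 fibroblast, 0 of 8 choroid plexus and 0 of 4 lymphatic genes read higher. Of the others, 2 of 12 pericyte, 2 of 10 astrocyte, 1 of 9 leukocyte and platelet and 1 of 3 red cell genes did. So did 3 of 10 neuron and 4 of 7 oligodendrocyte genes, beside 51.3% of all genes. That share depends on level, since 6649 of the 10926 genes whose mean lay above the median of all probe sets (5.54) read higher. Dimmer genes therefore read higher less often. The neuron list (5.29 in Fz4-/-, 5.43 in wild type) and the oligodendrocyte list (4.93 and 4.98) lay below that median. By replicate number, the median difference was -2.85, 0.06 and 0.05 for microglia and -2.64, 0.38 and -0.83 for fibroblasts. It was -1.31, 0.28 and -0.02 for lymphatic endothelium and -0.74, -0.80 and -3.09 for choroid plexus. The largest shift was thus at number 1 for microglia, fibroblasts and lymphatic endothelium, and at number 3 for choroid plexus. Means ran from 8.91 to 10.19 on the Fz4-/- arrays against 9.87 to 10.24 on the wild-type arrays for pericytes and smooth muscle. For neurons they ran from 4.61 to 5.82 against 5.10 to 5.93, for oligodendrocytes from 4.61 to 5.20 against 4.89 to 5.09, for red cells from 4.95 to 5.83 against 5.51 to 6.19 and for lymphatic endothelium from 7.23 to 8.89 against 8.58 to 8.68. The part of these cells in the differences of the surface genes was not tested. Without Fz4-/- replicate 1, the median difference of the 8 genes was 0.34 and Clec14a read 0.99, and without wild-type replicate 3 the median was 0.35. On the array means, the 8 genes together read 11.84, 11.76 and 11.83 on the Fz4-/- arrays, against 11.35, 11.35 and 11.53 on the wild-type arrays.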

How the data were processed

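RNA from 3 Fz4-/- and 3 wild-type preparations of bead-purified cerebellar endothelial cells was extracted with Trizol and RNeasy, biotin-labelled and hybridised to Affymetrix arrays, per the labels' protocols. What the authors deposited is 1 log2 value per probe set and array, made with RMA per the submitters' processing notes. RMA corrects background, normalizes between arrays and summarises probes, which compresses differences near background. The RMA software was not given in the sources used here.

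Of 45101 probe sets, 64 Affymetrix controls were left out. Names came from the platform annotation, updated through gene identifiers in RefSeq tables of GRCm38.p6 (34945 probe sets with 1 symbol, 932 with several, 9160 with none, 34741 matched, 0 symbols changed). For each gene the probe set brightest over the 6 arrays was taken. The genotypes were tested with limma 3.58.1 under R 4.3.3 (functions lmFit and eBayes, two-sided, Benjamini-Hochberg adjustment over 45037 probe sets), on all 6 arrays without covariates. Intervals use the moderated error. An exact permutation of 3 against 3 arrays cannot go below p = 0.1, so none was used. No 2 arrays shared more than 0.351% of values. Limma was tested on simulated data, 5 runs with 200 changed probe sets each.

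The members, lists and tests were chosen with earlier results of these data known. The rule for named genes took the 8 genes, Fzd4, of every other list the genes past the threshold or else the 3 with the lowest p, and the 5 nearest genes to Pecam1 and Clec14a. Cell type lists passed none and are given by their levels, and any other gene was named with its values in view.

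The replicate numbers of the labels, 1 to 3 in both genotypes, were checked as pairs. Deviations from the group means correlated at 0.244, 0.303 and 0.574 across probe sets for equal numbers, each over the 0.1 required of pairs. Unlike numbers reached 0.262, so that numbers 1 and 2 are told apart only weakly. Differences within numbers are therefore given beside the pooled ones, and the block is an alternative fit with 2 residual degrees of freedom against 4. Other alternatives were 4 further normalizations or centrings, filters on dim probe sets, variance models, array weights, the choice of probe set, other thresholds and leaving out arrays. Figures were drawn with matplotlib 3.10.9.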

Additional observations from a re-analysis of the deposited data

How the results depend on the processing

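In every setting run, 0 surface gene probe sets passed, as did 0 members of the other pan-endothelial list, the binding partners and the relatives. The limma count over the whole table, 5 probe sets, became 0 with the unmoderated statistic, with the replicate block (alone or with pan-endothelial centring) and without both arrays numbered 3. It became 21 with array weights, 1 at an adjusted p of 0.01 and 8 at 0.1. Leaving out 1 array left 0 to 2 (1 without Fz4-/- replicate 1, 2 without wild-type replicate 3, 0 otherwise). Averaging the probe sets of each gene tests genes instead, and 11 genes passed. In the fit over all probe sets, 4 genes passed on their brightest probe set. Where 0 passed, 1329 to 5522 probe sets had an unadjusted limma p under 0.05. The replicate block changed no call of the surface genes.

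All 8 surface genes kept a difference above 0 in every setting that measured them, except under pan-endothelial centring, with or without the block, where Adgrl4 read -0.070 and Cd93 -0.041. The filters on dim probe sets, the variance models and the block alone cannot change these differences, so they do not test the sign. That centring, which removes the endothelial mean by construction, gave a median of 0.21 for the 8 genes. Without probe sets ending in _x_at, _s_at or _a_at only 4 genes were measured, 4 of them higher, with a median of 0.20. Leaving out 1 array gave medians from 0.30 to 0.37. The centring with the block, leaving out both arrays numbered 3 and leaving out only _x_at and _s_at probe sets were chosen after seeing the data. Of the 17 probe sets, 16 lay above the median level of all probe sets and 15 above log2 of 100, and those below are Cd93 probe sets. Standard errors of 0.16 to 0.29 on the brightest probe sets, and of up to 0.46 on the others, limit what 3 arrays a group can resolve.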
